A study of Mus musculus with 12 samples.

Results

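Haptoglobin (Hp) and kininogen 2 (Kng2) transcripts were present in mouse embryonic fibroblasts after 96 h of treatment and nearly gone after 240 h, with the inactive control compound and with vehicle alike. Serping1, the C1 inhibitor, stood somewhat higher at 240 h, and the complement component transcripts C1ra, C4b and C3 had lower means. They belong to a set of 8 complement and acute phase genes, of 26305 genes in the table, with Lcn2 and Saa3 as the other members. The 8 were selected on a named list drawn up with earlier results of the same libraries known, so their levels and changes with time are given as a description, without a test.

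The study sequenced messenger RNA from cultured fibroblasts of wild type C57BL/6 embryos of embryonic day 13.5, labelled male and grown at 3% oxygen in DMEM with 10% foetal bovine serum. One set of cultures received 10 µM WM-2474, an inactive control compound per the treatment label, and the other received DMSO, the vehicle. Each treatment was sampled at 240 h and at 96 h, giving 12 libraries in 4 groups with 3 biological replicates each. All cultures shared strain, genotype, medium and oxygen, and no untreated culture was among them. The labels call them biological replicates but do not say whether embryos were pooled, and p-values measure the spread between these cultures.

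Complement is a cascade of plasma proteases and opsonins. C1r activates C1s, both held on C1q, and C1s cleaves C4 and C2 to form an enzyme that cleaves C3, and the C1 inhibitor blocks C1r, C1s and the kinin-releasing protease kallikrein. Acute phase proteins are secreted, mostly by the liver, when interleukin-6 and interleukin-1 act through STAT3, C/EBP and NF-kappaB factors, and fibroblasts and other stromal cells can make several of them locally. Kininogens are the precursors of bradykinin.

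The promoter sequences below are shown because the C/EBP genes Cebpa and Cebpd changed with culture time beside these genes. Each covers 300 bases around a RefSeq transcription start (GRCm38.p6), most of them before it, and is written 5′ to 3′ on the gene's own strand. For Kng2, C3 and C1ra that start is the 5′ end of the gene as RefSeq places it. For Saa3 it is position 46715676, inside RefSeq's gene span, which reaches 46719615, and just inside that of GENCODE M21, which ends at 46715700. Capitals mark matches on either strand to TTNNGNAA, a C/EBP pattern, or to TTCNNNGAA, the STAT pattern. RefSeq promoter entries matched C1ra, C3, Lcn2, Saa3 and Kng2, which is 5 of the 8 genes, and 4 are printed.
Kng2, chr16:23029052-23029351, minus strand: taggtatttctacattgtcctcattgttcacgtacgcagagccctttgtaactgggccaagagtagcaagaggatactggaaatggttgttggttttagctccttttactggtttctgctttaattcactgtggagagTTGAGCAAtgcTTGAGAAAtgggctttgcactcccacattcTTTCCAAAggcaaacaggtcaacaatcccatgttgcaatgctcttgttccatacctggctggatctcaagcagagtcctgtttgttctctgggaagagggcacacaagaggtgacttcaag
Saa3, chr7:46715627-46715926, minus strand: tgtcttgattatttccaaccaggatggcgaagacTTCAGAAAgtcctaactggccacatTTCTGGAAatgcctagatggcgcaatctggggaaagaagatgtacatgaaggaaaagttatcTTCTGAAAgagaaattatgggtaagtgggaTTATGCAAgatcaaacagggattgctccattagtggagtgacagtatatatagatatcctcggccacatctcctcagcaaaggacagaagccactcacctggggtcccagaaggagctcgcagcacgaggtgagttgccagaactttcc
C3, chr17:57228087-57228386, minus strand: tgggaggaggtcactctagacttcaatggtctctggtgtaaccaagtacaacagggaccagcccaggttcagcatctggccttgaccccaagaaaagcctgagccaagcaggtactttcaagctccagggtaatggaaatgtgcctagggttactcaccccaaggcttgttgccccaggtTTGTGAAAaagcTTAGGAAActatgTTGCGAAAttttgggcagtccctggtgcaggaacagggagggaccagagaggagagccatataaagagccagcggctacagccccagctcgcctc
C1ra, chr6:124512371-124512670, plus strand: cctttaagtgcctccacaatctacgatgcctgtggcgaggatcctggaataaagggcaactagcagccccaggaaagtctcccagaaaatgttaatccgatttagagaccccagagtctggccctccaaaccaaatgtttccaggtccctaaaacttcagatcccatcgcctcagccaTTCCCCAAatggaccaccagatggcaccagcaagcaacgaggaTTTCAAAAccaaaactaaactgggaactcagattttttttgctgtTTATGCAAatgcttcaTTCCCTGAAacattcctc
The Kng2 promoter held 3 C/EBP pattern matches, starting at positions -112, -101 and -71 from the start used. The Saa3 window held 4, at -216, -191, -129 and -99 from position 46715676. In C3 the pattern started at -70, -58 and -45, the last of them read on both strands, and in C1ra at -72, -29 and 17, with 1 STAT match at 33. No match of one pattern overlapped a match of the other. The Lcn2 promoter, which is not printed, held only a C/EBP match at -216. Of 32851 promoters of the same length, 40.7% held at least 1 C/EBP match and 8.3% at least 1 STAT match. The share with several matches was not counted. The NF-kappaB decamer, present in 4.51% of all promoters, matched none of the 5. A match describes letters in this window, not a bound site.

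Each library held 7313007 to 26019167 counts in total, with a count for 16036 to 17307 genes. A floor of 3 counts corresponds to 0.115 to 0.41 CPM, the counts scaled to a common library size, depending on the library. The 10 fibroblast markers, such as collagen genes and Pdgfra, had more than 3 counts in every library, so the label fibroblast was met. They summed to 50800 to 52700 CPM with WM-2474 and 48100 to 49600 with DMSO at 240 h. At 96 h the sum was 31400 to 37100 CPM with WM-2474 and 31700 to 37300 with DMSO. Col1a1 was the largest part of the sum, and single markers could differ from it. Pdgfra went the other way. It averaged 200 CPM with WM-2474 and 201 with DMSO at 240 h, and 296 and 287 at 96 h. DMSO replicates 1 and 2 at 240 h stood apart in B lineage markers, whose sum reached 17.8 CPM there and at most 3.81 CPM in every other library, and counts of calls over time are also given without both. In bulk RNA, fewer cells of a type and less RNA per cell cannot be told apart.

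**Figure D1:**
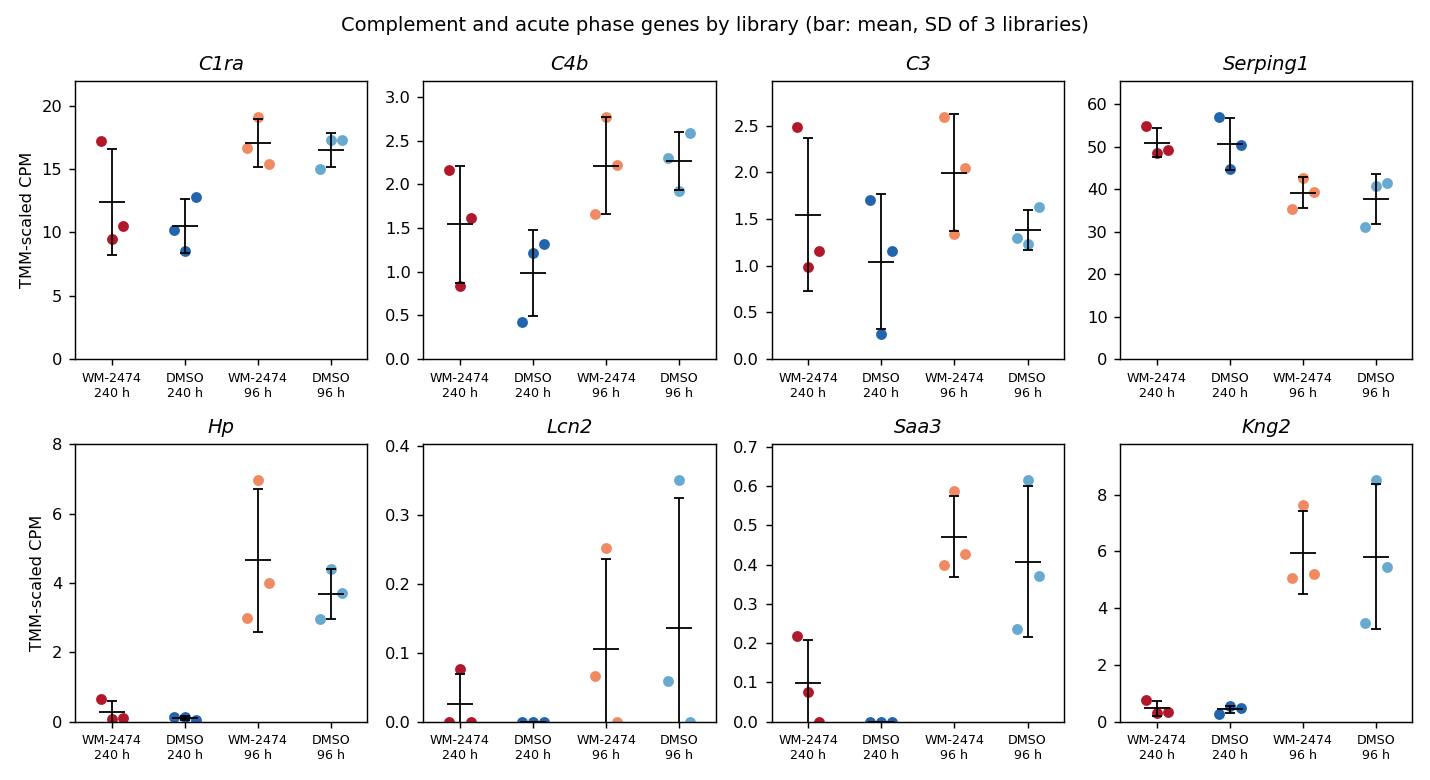
TMM-scaled CPM of the 8 genes in each library (points), with the mean and SD of 3 libraries as bars; each panel has its own linear axis from 0, and parts of SD bars under 0 are not drawn. Hp, Kng2 and Saa3 sit lower in every 240 h library than in any 96 h library of the same treatment, and Serping1 sits higher.

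The most abundant transcript per length was Serping1, whose product inactivates C1r and C1s. The gene (Entrez Gene 12258) lies at chr2:84765360-84775444 on the minus strand. Serping1 had 54.9, 48.6 and 49.3 CPM in the WM-2474 libraries at 240 h, against 35.4, 42.7 and 39.4 CPM in the WM-2474 libraries at 96 h. With DMSO, Serping1 had 56.9, 44.7 and 50.3 CPM at 240 h, against 31, 40.7 and 41.5 CPM at 96 h. All 240 h libraries were above all 96 h libraries within each treatment. On the log2 scale the difference of Serping1, 240 h over 96 h, was 0.38 ± 0.11 (SE) with WM-2474 and 0.43 ± 0.11 with DMSO. Of the 6 genes with a fit, Serping1 was the only one above 0, with values backed by 329 to 1256 reads per library.

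C1ra encodes C1r, the protease that activates C1s. The gene (Entrez Gene 50909) lies at chr6:124512621-124523440 on the plus strand and ranked second per length in all 4 groups. C1ra had 17.2, 9.51 and 10.5 CPM with WM-2474 at 240 h, against 16.7, 19.1 and 15.4 CPM at 96 h. With DMSO, C1ra had 10.2, 8.55 and 12.8 CPM at 240 h, against 15, 17.3 and 17.3 CPM at 96 h. The DMSO groups did not overlap, whereas WM-2474 replicate 1 at 240 h lay within the range of its 96 h group. The log2 difference of C1ra was -0.48 ± 0.19 with WM-2474 and -0.57 ± 0.19 with DMSO. C1ra shares 59.6% of its 31-base words with other genes, mostly with its neighbouring copy C1rb, so reads of the pair could be split by the counting. C1rb averaged 2.45 ± 1.3 CPM with WM-2474 and 2.32 ± 0.597 with DMSO at 240 h, and 2.31 ± 0.593 with WM-2474 and 2.68 ± 0.406 with DMSO at 96 h (SD, n = 3).

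C4b encodes complement component 4, the substrate of C1s, and lies at chr17:34728139-34743902 on the minus strand (Entrez Gene 12268). C4b had 20, 11 and 14 counts with WM-2474 at 240 h, against 25, 33 and 26 counts at 96 h. With DMSO, C4b had 3, 9 and 33 counts at 240 h, against 39, 22 and 35 counts at 96 h. Since the last 240 h DMSO library was by far the deepest, its 33 counts are 1.32 CPM, below the 1.93 CPM of the lowest 96 h DMSO library. The DMSO groups therefore did not overlap in CPM, and the WM-2474 groups did. The log2 difference of C4b was -0.57 ± 0.33 with WM-2474 and -1.03 ± 0.33 with DMSO. C4b shares 48.3% of its 31-base words with its copy C4a, which had 20 counts in all with WM-2474 and 49 with DMSO at 240 h, and 46 with WM-2474 and 64 with DMSO at 96 h.

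C3, the component on which the complement pathways converge, lies at chr17:57203967-57228136 on the minus strand (Entrez Gene 12266). C3 had 23, 13 and 10 counts with WM-2474 at 240 h, against 39, 16 and 24 counts at 96 h. With DMSO, C3 had 12, 2 and 29 counts at 240 h, against 22, 14 and 22 counts at 96 h. The libraries overlapped within both treatments. The log2 difference of C3 was -0.44 with a 95% interval of -1.2 to 0.33 with WM-2474, and -0.35 with an interval of -1.18 to 0.47 with DMSO. Among the genes that passed the count filter, C3 was the one whose intervals included 0 in both treatments.

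Hp encodes haptoglobin, which binds free haemoglobin, and lies at chr8:109575128-109579172 on the minus strand (Entrez Gene 15439). Hp had 6, 1 and 1 counts with WM-2474 at 240 h, against 45, 83 and 47 counts at 96 h. With DMSO, Hp had 1 count in each of the 3 libraries at 240 h, against 50 in each of the 3 libraries at 96 h. The 240 h and 96 h libraries were thus far apart in both treatments. Summed over libraries, the Hp level was 17.5-fold lower at 240 h with WM-2474 (95% counting interval 8.7 to 41.3) and 46.9-fold lower with DMSO (15.8 to 230.0). WM-2474 replicate 1 held most of the 240 h reads. The fitted log2 difference of Hp with WM-2474 was -4.09 ± 0.50 with that library and -5.5 without it.

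Kng2, a kininogen gene of mouse, lies at chr16:22985852-23029101 on the minus strand (Entrez Gene 385643). Its promoter, with the C/EBP pattern at 3 places, is the first printed above. Kng2 had 7, 4 and 3 counts with WM-2474 at 240 h, against 76, 91 and 61 counts at 96 h. With DMSO, Kng2 had 2, 4 and 12 counts at 240 h, against 59, 97 and 74 counts at 96 h. No library of one time reached the range of the other in either treatment. Kng2 was 13.1-fold lower at 240 h with WM-2474 (95% counting interval 7.63 to 24.3) and 12-fold lower with DMSO (7.46 to 20.7). Kng2 shares 30.6% of its 31-base words with Kng1 alone. The related Kng1 transcript had 11 counts in all with WM-2474 and 6 with DMSO at 240 h, and 135 with WM-2474 and 100 with DMSO at 96 h, so both kininogens stood low at 240 h.

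Saa3, a serum amyloid A gene expressed outside the liver in mouse, lies at chr7:46711998-46719615 on the minus strand (Entrez Gene 20210). Saa3 had 2, 1 and 0 counts with WM-2474 at 240 h, against 6, 7 and 5 counts at 96 h. With DMSO, Saa3 had no count in any library at 240 h, against 4, 7 and 5 counts at 96 h. Its level was 4.81-fold lower at 240 h with WM-2474 (95% counting interval 1.4 to 25.5). With DMSO, 0 counts at 240 h stood against 16 at 96 h, and the lower 95% counting bound of the fold was 3.62. The liver genes Saa1 and Saa2 had no count in any library.

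Lcn2 encodes lipocalin 2, which withholds iron from bacteria by binding their siderophores, and lies at chr2:32384637-32387739 on the minus strand (Entrez Gene 16819). Lcn2 had 0, 1 and 0 counts with WM-2474 at 240 h, against 1, 3 and 0 counts at 96 h. With DMSO, Lcn2 had no count in any library at 240 h, against 1, 4 and 0 counts at 96 h. These counts lie at or near the floor, so no fold is given and a difference was not detectable at this depth. In the same libraries S100a8 and S100a9, genes of neutrophils, in which Lcn2 is abundant, had no count.

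Scaled to transcript length, Serping1 averaged 28 ± 1.87 CPM per kilobase with WM-2474 and 27.8 ± 3.36 with DMSO at 240 h, and 21.5 ± 2.02 with WM-2474 and 20.7 ± 3.22 with DMSO at 96 h (SD, n = 3). C1ra averaged 4.5 ± 1.52 CPM per kilobase with WM-2474 and 3.8 ± 0.773 with DMSO at 240 h, and 6.18 ± 0.695 with WM-2474 and 5.99 ± 0.472 with DMSO at 96 h. At 96 h the next in order were Hp, at 3.46 ± 1.54 CPM per kilobase with WM-2474 and 2.73 ± 0.536 with DMSO, and Kng2, at 2.37 ± 0.577 with WM-2474 and 2.31 ± 1.01 with DMSO. Hp and Kng2 libraries overlapped there, so their order is within their spread. At 240 h their places were taken by C3 and C4b. C3 had 0.301 ± 0.161 with WM-2474 and 0.203 ± 0.14 with DMSO. C4b had 0.286 ± 0.124 with WM-2474 and 0.183 ± 0.0912 with DMSO. However, C3, C4b, Kng2, Hp and Saa3 overlapped each other with WM-2474. With DMSO C3, C4b and Kng2 overlapped each other, and Hp, at 1 count per library, overlapped C3 and C4b. These places are therefore not resolved.

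**Figure D2:**
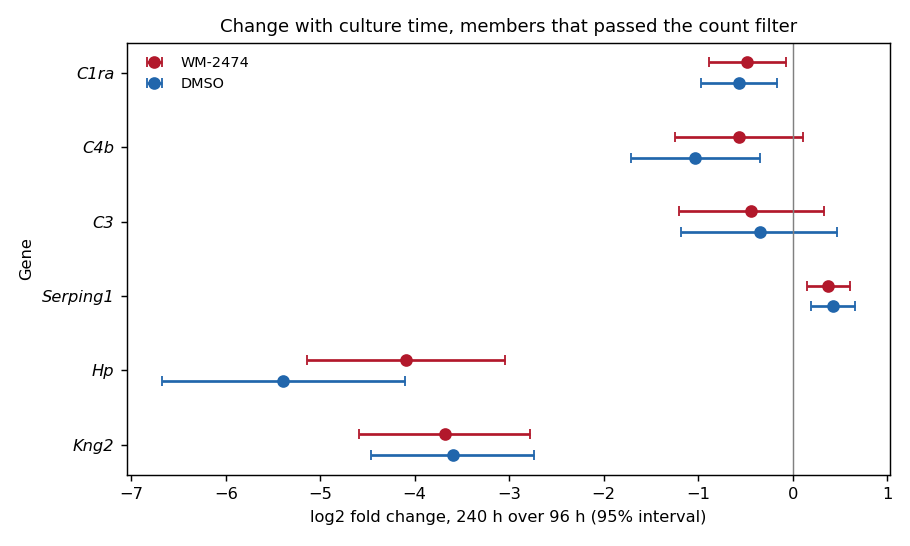
Fitted log2 fold change of 240 h over 96 h (points) with 95% intervals for the 6 genes that passed the count filter, with WM-2474 and with DMSO. Hp and Kng2 lie between -5.39 and -3.60, Serping1 lies at 0.38 and 0.43, and the other 3 lie between -1.03 and -0.35.

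Counted over all 8 genes, libraries at 240 h lay wholly below those at 96 h for 3 genes with WM-2474 (Hp, Saa3 and Kng2) and for 5 with DMSO (these and C1ra and C4b). The same held for 21.2% of the 13499 genes that passed the filter with WM-2474 and for 22.8% with DMSO. Serping1 was wholly above in both treatments, as were 21.1% of genes with WM-2474 and 22.9% with DMSO. Nothing is read from these shares, since the members were chosen with such values known. Both genes that had no separate fit, Saa3 and Lcn2, failed the filter on low counts, and Hp and Kng2 passed it through their 96 h libraries.

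The effect of the compound was asked next, by comparing WM-2474 with DMSO at each time. None of the 6 tested genes passed the test of a difference. At 240 h Serping1 averaged 50.9 ± 3.41 CPM with WM-2474 and 50.6 ± 6.12 CPM with DMSO, and C1ra 12.4 ± 4.2 CPM with WM-2474 and 10.5 ± 2.14 CPM with DMSO (SD, n = 3). At 96 h Serping1 averaged 39.2 ± 3.67 CPM with WM-2474 and 37.7 ± 5.87 CPM with DMSO, and C1ra 17.1 ± 1.92 CPM with WM-2474 and 16.5 ± 1.3 CPM with DMSO. The libraries of both treatments overlapped for all 8 genes at both times.

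The width of the intervals differed between genes with their depth. For Serping1 the 95% interval of the log2 difference, WM-2474 over DMSO, was -0.22 to 0.24 at 240 h and -0.17 to 0.29 at 96 h. For C1ra it was -0.3 to 0.58 at 240 h and -0.32 to 0.43 at 96 h. For C3 it was wider, -0.4 to 1.33 at 240 h and -0.18 to 1.27 at 96 h, around a difference of 0.46 at 240 h and 0.55 at 96 h. C4b gave -0.38 to 1.17 at 240 h and -0.66 to 0.52 at 96 h. Hp gave 1.63 with an interval of -0.78 to 4.05 at 240 h, where 8 counts with WM-2474 stood against 3 with DMSO, and 0.34 with an interval of -0.24 to 0.92 at 96 h. The 240 h difference of Hp was 0.23 without WM-2474 replicate 1 and 0.85 without DMSO replicate 3. Kng2 gave -1.5 to 1.48 at 240 h and -0.45 to 0.6 at 96 h.

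**Figure D3:**
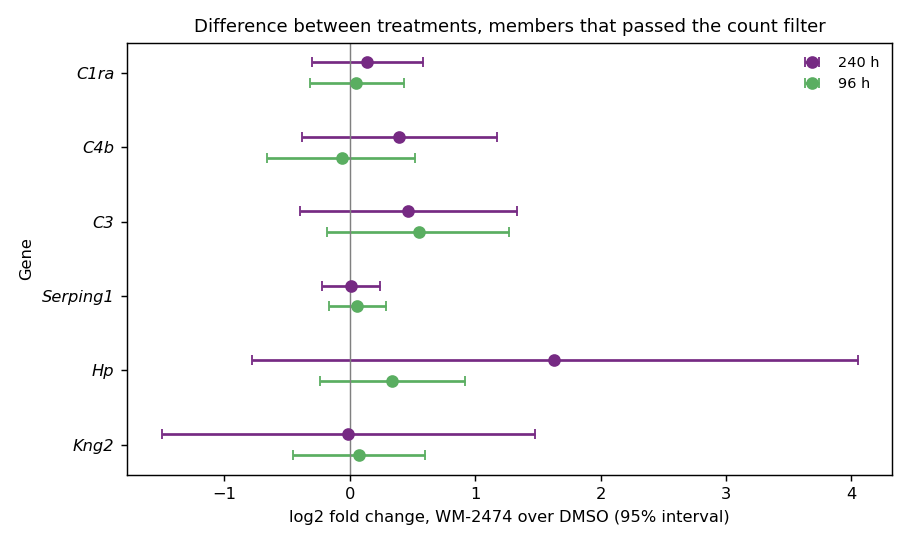
Fitted log2 fold change of WM-2474 over DMSO (points) with 95% intervals at 240 h and 96 h for the 6 genes that passed the count filter. All intervals include 0, and those of Hp and Kng2 at 240 h are the widest, where both genes had few counts.

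In edgeR's quasi-likelihood test with Benjamini-Hochberg adjustment over all 13499 genes, 0 of 6 members passed at 240 h, where 0.0296% of all genes did. The smallest adjusted p among members there was 0.731. At 96 h 0 of 6 passed, as did 0% of all genes (smallest adjusted p 1.0). Averaged over both times 0 of 6 passed, against 0.0148% of all genes (smallest adjusted p 0.896, that of C3, at a log2 difference of 0.51 ± 0.27). At an unadjusted p under 0.05 the member count was also 0 in each comparison, with edgeR, DESeq2 and limma-voom alike. Among all genes, edgeR had 1099 under that level at 240 h, 283 at 96 h and 763 for the average, while DESeq2 had 697, 109 and 466. Replicate numbers paired the cultures at 96 h, and with the replicate number as a block on the 96 h libraries alone 3 genes passed, none of them a member.

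The change with time was also compared between treatments. The log2 change of Hp with WM-2474 minus that with DMSO was 1.3 ± 1.18, and that of Kng2 was -0.08 ± 0.77. For Serping1 the difference was -0.05 with an interval of -0.38 to 0.28, and for C1ra 0.09 with an interval of -0.49 to 0.66. By the edgeR test of this difference, 0 of 6 members passed, as did 0% of all genes, with a smallest adjusted p of 0.977 among members. No member had an unadjusted p under 0.05 in edgeR, DESeq2 or limma-voom, where 626, 297 and 815 of all genes did.

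A list of 127 other genes of complement, the acute phase, the kinin system and the signalling above them gives the setting of these values. The list was written with earlier results of these data known. Its counts, medians and calls over time are therefore a description, and no excess over all genes is read from them. Of its genes, 70 passed the count filter. With WM-2474, 27 of the 70 fell and 8 rose at 240 h relative to 96 h, with a median log2 change of -0.24 against -0.004 over all 13499 genes, of which 14.8% fell and 15.9% rose. With DMSO, 34 fell and 8 rose, with a median of -0.31 against -0.0064 over all genes, of which 17.3% fell and 17.5% rose. These time comparisons share no library, and 25 genes fell and 7 rose in both, which is 25 of 27 falling genes with WM-2474 and 25 of 34 with DMSO. Under scaling by library totals the median of all genes was -0.14 with WM-2474 and -0.13 with DMSO, and the list had 41 falling genes in each treatment, and 3 rising with WM-2474 and 5 with DMSO. Of all genes, 32.5% then fell and 8.13% rose with WM-2474, and 32.4% fell and 8.82% rose with DMSO. Without DMSO replicates 1 and 2 at 240 h, 27 genes of the list fell and 7 rose with DMSO, 32 of these 34 being among the 42 called with all libraries.

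**Figure D4:**
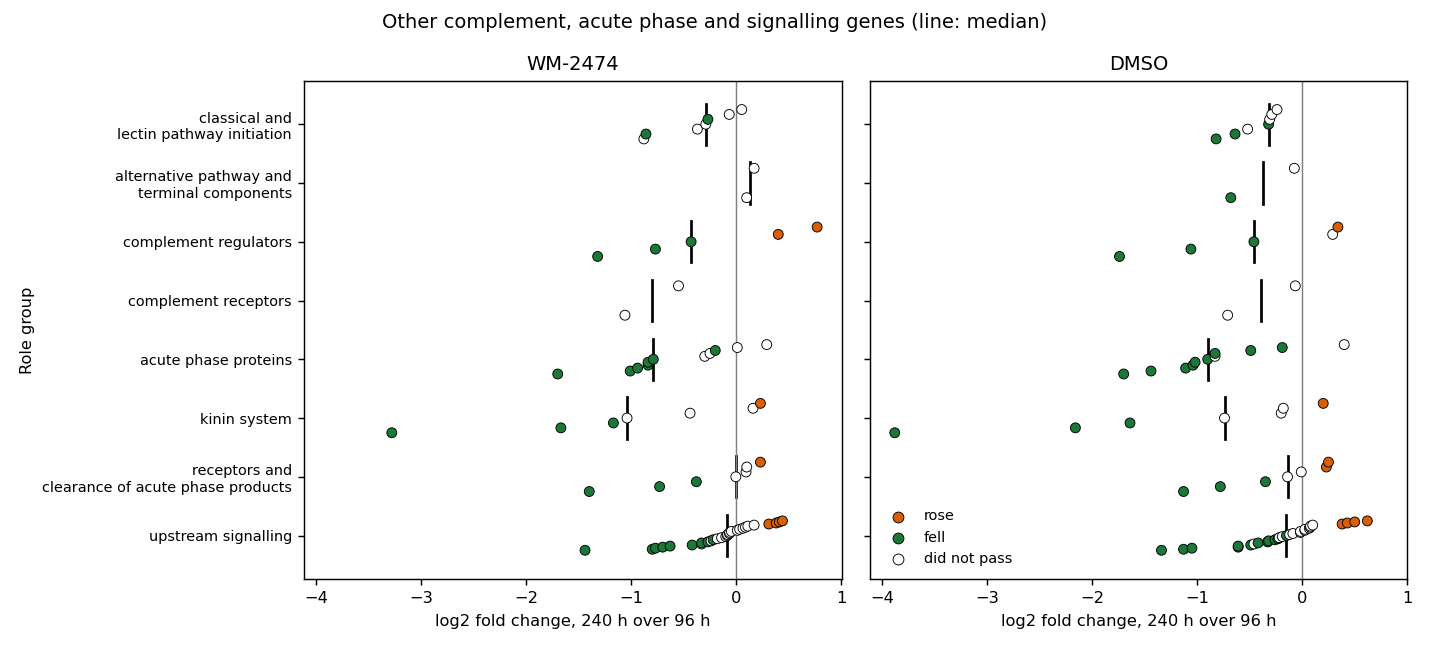
Log2 fold change of 240 h over 96 h for the 70 tested genes of the wider list, in rows by role, with WM-2474 (left) and DMSO (right). Filled points passed the edgeR test at an adjusted p under 0.05 and vertical lines are row medians; the acute phase row has 7 falling genes of 11 with WM-2474 and 9 with DMSO, and none rising.

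Among genes listed under the first steps of the classical and lectin pathways, 2 of 7 tested fell with WM-2474 and 3 with DMSO, and none rose. The role was drawn widely and also holds C2, C4a and the receptor Colec12, which are not starters of these pathways. Masp1, a protease of the lectin pathway, fell, with a log2 change of -0.86 with WM-2474 and -0.82 with DMSO. Colec12, a scavenger receptor collectin, fell, with a log2 change of -0.27 with WM-2474 and -0.32 with DMSO. C1s1, which encodes C1s, the substrate of C1r, fell by 0.64 with DMSO (adjusted p 0.00875), and its log2 change with WM-2474 was -0.37 (adjusted p 0.119). The C1q chain genes C1qa, C1qb and C1qc were among 8 genes of this role that failed the count filter.

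Of the alternative pathway and terminal components, only Cfb and Cfp of 10 were tested. Cfb, the protease of the alternative C3 convertase, fell by 0.68 with DMSO (adjusted p 0.0113), and its log2 change with WM-2474 was 0.10 (adjusted p 0.783). The difference between these changes of Cfb was 0.78, with an interval of 0.18 to 1.38, and did not pass (adjusted p 0.977). Cfp, properdin, which stabilises that convertase, had a log2 change of 0.17 ± 0.14 with WM-2474 and -0.08 ± 0.14 with DMSO and did not pass. Hc, C6, C7, C8a, C8b, C8g and C9, which encode the lytic pore and its C5 trigger, did not reach the filter.

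Complement regulators moved both ways, with 3 falling and 2 rising of 5 with WM-2474, and 3 falling and 1 rising with DMSO. Clu, clusterin, an inhibitor of the lytic pore, averaged 2.55 ± 0.146 CPM with WM-2474 at 240 h and 6.36 ± 1.14 CPM at 96 h, and with DMSO 2.14 ± 0.115 CPM at 240 h and 7.09 ± 1.11 CPM at 96 h. Clu fell, with a log2 change of -1.32 with WM-2474 and -1.74 with DMSO. Cd55, which speeds the decay of convertases, fell, with a log2 change of -0.43 with WM-2474 and -0.46 with DMSO. Cr1l, a membrane cofactor that limits C3 deposition on mouse cells, rose by 0.40 with WM-2474 and 0.34 with DMSO. Cd59a, which blocks the lytic pore on the cell surface, rose by 0.77 with WM-2474 (adjusted p 0.0341), a call lost under scaling by library totals, and its log2 change with DMSO was 0.29 (adjusted p 0.43). Neither of the 2 tested complement receptors passed, and Cr2 had a log2 change of -1.06 ± 0.44 with WM-2474 and -0.71 ± 0.41 with DMSO.

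Of 11 tested genes listed under the acute phase, members left out, 7 fell with WM-2474 and 9 with DMSO, and none rose. This role was drawn widely and also holds the metallothioneins Mt1 and Mt2, the tissue factor gene F3 and the receptor Cd14. Cp, ceruloplasmin, the copper-carrying ferroxidase, averaged 4.96 ± 0.603 CPM with WM-2474 at 240 h and 16.3 ± 1.61 CPM at 96 h. With DMSO, Cp averaged 4.95 ± 1.37 CPM at 240 h and 15.6 ± 2.29 CPM at 96 h, and its log2 change was -1.70 in both treatments. Mt2, a metal-binding metallothionein, fell, with a log2 change of -0.84 with WM-2474 and -1.02 with DMSO. Of the 28 genes of this role 17 failed the filter, among them the fibrinogen chains Fga, Fgb and Fgg, and 7 of the 17 had no count in any library.

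In the kinin system, 3 of 7 tested genes fell and 1 rose in each treatment. Kng1, the other kininogen, averaged 0.342 ± 0.203 CPM with WM-2474 at 240 h and 3.56 ± 1.04 CPM at 96 h, and fell in both treatments, with a log2 change of -3.28 with WM-2474 and -3.88 with DMSO. Bdkrb2, the constitutive bradykinin receptor, averaged 0.328 ± 0.375 CPM with WM-2474 at 240 h and 1.24 ± 0.0386 CPM at 96 h, and fell, with a log2 change of -1.67 with WM-2474 and -1.64 with DMSO. Ace, which degrades bradykinin, fell by 2.16 with DMSO (adjusted p 0.00139), and its log2 change with WM-2474 was -1.04 (adjusted p 0.118). Few counts underlie these 240 h values. Bdkrb2 had 12 counts in all with WM-2474 and 12 with DMSO, and Ace had 16 with WM-2474 and 12 with DMSO. The DMSO counts of Ace ranged from 0 to 10 per library. Kng1, Bdkrb2 and Ace passed the count filter through their 96 h libraries. Their calls as falling are therefore a description from which no support is drawn, and the size of their fitted changes is uncertain. Cpe, a carboxypeptidase, rose by 0.23 with WM-2474 and 0.20 with DMSO, calls lost under scaling by library totals. Klkb1 and F12, the plasma proteases that release bradykinin and start contact activation, failed the filter.

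The role of receptors and clearance of acute phase products had 3 falling and 1 rising gene of 7 with WM-2474, and 3 falling and 2 rising with DMSO. Not all of these are clearance receptors, since the role also holds the enzyme Hmox1 and the receptors Tlr2 and Tlr4. Lrp2, an endocytic receptor, fell, with a log2 change of -1.40 with WM-2474 and -1.13 with DMSO. Scarb1, a lipoprotein receptor that also takes up serum amyloid A, fell, with a log2 change of -0.73 with WM-2474 and -0.78 with DMSO. Lrp1, the receptor for haemopexin-haem complexes, rose by 0.23 in each treatment, and Hmox1, which degrades haem, rose by 0.25 with DMSO, calls lost under scaling by library totals. The log2 change of Hmox1 with WM-2474 was 0.09 (adjusted p 0.368).

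Of 29 tested genes of upstream signalling, 9 fell and 4 rose with WM-2474, and 12 fell and 4 rose with DMSO. Cebpa, a C/EBP factor, averaged 5.76 ± 1.86 CPM with WM-2474 at 240 h and 15.4 ± 0.412 CPM at 96 h, and with DMSO 5.55 ± 0.744 CPM at 240 h and 14.8 ± 1.96 CPM at 96 h. Cebpa fell, with a log2 change of -1.44 with WM-2474 and -1.34 with DMSO. Cebpd, another C/EBP factor, averaged 38.8 ± 5.45 CPM with DMSO at 240 h and 86.1 ± 9.03 CPM at 96 h, and fell, with a log2 change of -0.80 with WM-2474 and -1.13 with DMSO. Nfkbiz, a nuclear NF-kappaB cofactor, fell, with a log2 change of -0.63 with WM-2474 and -0.61 with DMSO. Ifngr1 and Ifngr2, the interferon gamma receptor chains, rose by 0.41 and 0.44 with WM-2474 and by 0.43 and 0.50 with DMSO. Whether these changes bear on the 8 genes was not tested.

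Between treatments no gene of the list passed the edgeR test at either time, for the average or for the difference in time change. At an unadjusted p under 0.05 edgeR had 5 of 70 list genes at 240 h, 2 at 96 h, 8 for the average and 3 for the difference in time change. DESeq2 passed 0 as well, with 5, 2, 7 and 3 at that level, and limma-voom passed 0, with 8, 3, 10 and 4. Lifr, the receptor of leukaemia inhibitory factor, had the smallest p at 240 h, with a log2 difference of 0.40 ± 0.10 and an adjusted p of 0.334. At 96 h it was Lif, its ligand, with 0.38 ± 0.15 and an adjusted p of 1.0.

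Over the 12 libraries, the genes whose log2 CPM was most like that of Hp were Plagl1 (Pearson r 0.993) and H19 (0.991), of 12921 compared. For Kng2 they were Igf2 (0.988) and Ackr3 (0.987). H19 averaged 738.0 CPM with WM-2474 and 574.0 with DMSO at 240 h, and 2250.0 with WM-2474 and 2210.0 with DMSO at 96 h. Igf2 averaged 328.0 CPM with WM-2474 and 259.0 with DMSO at 240 h, and 1090.0 with WM-2474 and 1040.0 with DMSO at 96 h. Plagl1 averaged 25.7 CPM with WM-2474 and 22.6 with DMSO at 240 h, and 52.9 with WM-2474 and 49 with DMSO at 96 h. All the libraries share the split into 2 times, so these coefficients describe mainly that split. The nearest genes to Serping1 were Akap1 (0.973) and Marveld1 (0.962), and to C1ra Ppp4r1l-ps (0.959) and Krba1 (0.958). For the low-count C3 and C4b the highest coefficients were 0.925 (Cilk1) and 0.934 (Prdx5).

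Markers of other cell types moved with time as well. The 6 mesothelial markers summed to 20.2 to 27.8 CPM with WM-2474 and 21.7 to 22.4 CPM with DMSO at 240 h, and to 46.4 to 71.2 CPM with WM-2474 and 46.2 to 68.6 CPM with DMSO at 96 h. Adipocyte markers summed to 3.7 to 4.19 CPM with WM-2474 and 4.34 to 6.08 CPM with DMSO at 240 h. At 96 h the sum was 14.8 to 15.5 CPM with WM-2474 and 13.1 to 16.9 CPM with DMSO. Most of it was Plin4, which averaged 3.64 CPM with WM-2474 and 4.32 with DMSO at 240 h. At 96 h Plin4 averaged 13.0 CPM with WM-2474 and 12.5 with DMSO. Adipoq and Plin1 had at most 3 counts in any group, and Lep, Cidec and Retn were at 0 throughout. Endothelial markers summed to 2.28 to 4.81 CPM over all 240 h libraries and 5.09 to 7.93 CPM over all 96 h libraries. Single markers could differ from their sum. Upk1b, a mesothelial marker, averaged 4.02 CPM with WM-2474 and 4.29 with DMSO at 240 h, and 4.73 and 4.11 at 96 h. Pecam1, an endothelial marker, had 2 counts in all with WM-2474 and 12 with DMSO at 240 h, and 7 and 4 at 96 h. The part of these cell types in the changes of the 8 genes was not tested.

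**Figure D5:**
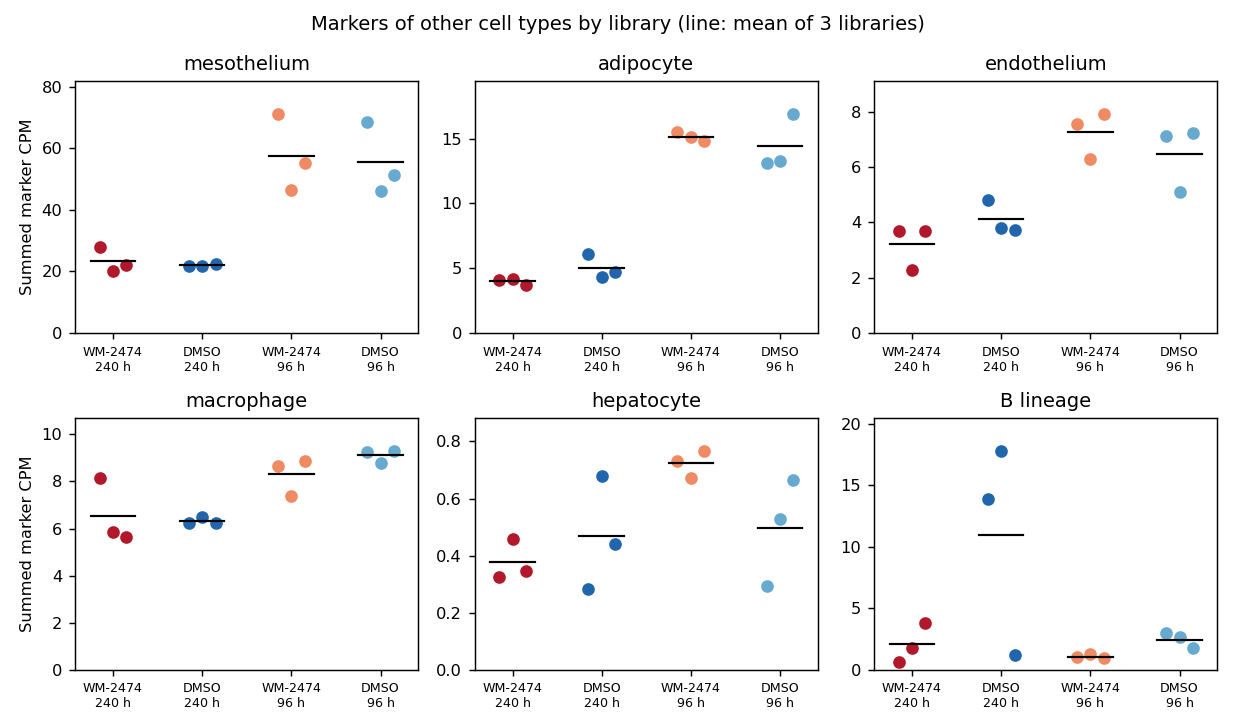
Summed CPM of marker genes of 6 other cell types in each library (points), with the mean of 3 libraries as a line; each panel has its own linear axis from 0. Mesothelial, adipocyte and endothelial sums are lower in all 240 h libraries than in all 96 h libraries, and 2 DMSO libraries at 240 h stand apart in B lineage markers.

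Hepatocyte and neutrophil markers were at or near 0, whereas some macrophage and epithelial markers were detected. Of 9 hepatocyte markers in the table, Ttr, Serpina1a, Afp, Apoc3 and Cyp2e1 had no count in any library, and the summed level was 0.283 to 0.679 CPM at 240 h and 0.295 to 0.768 CPM at 96 h. Neutrophil markers summed to at most 0.217 CPM at 240 h and 0.591 CPM at 96 h, with S100a8, S100a9 and Csf3r at 0. Macrophage markers summed to 5.66 to 8.13 CPM at 240 h and 7.39 to 9.31 CPM at 96 h, and epithelial markers to 1.7 to 3.39 CPM at 240 h and 2.27 to 6.51 CPM at 96 h. With WM-2474 the macrophage and the epithelial sums overlapped between times, and with DMSO both were lower in all 240 h libraries. The single markers went either way with DMSO. Among macrophage markers, Lyz2 averaged 0.366 CPM at 240 h and 2.53 at 96 h, and Csf1r 2.56 and 2.34. Among epithelial markers, Krt18 averaged 1.41 CPM at 240 h and 2.45 at 96 h, and Cldn4 0.569 and 0.398.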

How the data were processed

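Raw counts for each gene were deposited by the authors as one table that also gives exon lengths. Per the submitters' processing notes, featureCounts made them on mm10, and per the labels a stranded mRNA kit was used. No source used here gives the aligner, strand or multiple-mapping settings, so genes with near-identical copies or antisense partners are uncertain. Of 27179 entries, 874 carried no gene identifier (0.547 to 0.648% of counts) and were left out of library sizes and tests. The other 26305 were named by Entrez Gene number with RefSeq's GRCm38.p6 table, and 25275 had a symbol there. The members and the gene lists were chosen with earlier results of these data known.

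All 12 libraries were fitted with edgeR 4.0.16 (R 4.3.3), with 1 coefficient per group, after filterByExpr and TMM scaling (0.944 to 1.05). A robust quasi-likelihood F test, two-sided, was adjusted by Benjamini-Hochberg over 13499 genes within each contrast, with a threshold of 0.05, and the common biological variation was 5.22%. Replicates of a group were compared by a chi-square of their counts, which gave 2.03 to 5.22 per degree of freedom, above the level of 1 that sampling noise gives. The procedure was tested on simulated counts, for the treatment comparison at 240 h only and without pairing of replicates. Genes low on average were left unchanged there, so nothing is read from it for low-count genes or the paired 96 h cultures. CPM are TMM-scaled, ± is the SD of 3 libraries for CPM and the SE for log2 values, and 95% counting intervals and the floor of 3 counts cover counting error only. Fitted fold changes of genes with a few counts depend on the prior count, so count ratios are given for Hp, Kng2 and Saa3. Low-count genes of the wider list have fitted values only. Shared sequence was counted as 31-base words, on either strand, of GENCODE M21 transcripts. Named genes of the wider list were, per role and time comparison, up to 2 rising and 2 falling genes with the smallest p, or the smallest p where none passed, and for each tested member the 2 genes with the highest Pearson r (log2 CPM, prior count 2). Paralogs, regulators and markers outside that rule are named as context, and 1 gene that the rule names is not reported here.

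Replicate numbers appear in the labels of all groups. Deviations from the group means of same-numbered libraries correlated at 0.301, 0.235 and 0.191 between treatments at 96 h. The numbers thus pair the cultures there. At 240 h the coefficients were 0.0971, 0.114 and 0.0397, against -0.114 to 0.0231 for libraries of different numbers, so any pairing was weaker. Alternatives were RLE factors, library totals, other filters, DESeq2 1.42.0, limma-voom 3.58.1, the replicate block, only the libraries compared, and leaving out libraries.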

Additional observations from a re-analysis of the deposited data

How the results depend on the processing

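No member was called between treatments, or for the difference in time change, under any alternative. Of 548 recomputed log2 fold changes of members, 543 moved by less than the spread and 5, all of Hp, by more. The sign changed in 0 of 276 changes with time and in 24 of 272 treatment differences, none of them called. Hp with DMSO over time ranged from -6.2 (240 h replicates 1 and 2 left out) to -4.6 (240 h replicate 3 left out), and with WM-2474 from -5.5 to -3.52. The number of all genes called at 96 h was 0, and 3 with only the libraries compared and the replicate block. At 240 h, where 4 genes were called, there were 47 without a count filter, 11 with DESeq2, 2 with limma-voom, 7 with the replicate block, 15 with only the libraries compared, 91 with these and the replicate block, 0 without DMSO replicates 1 and 2, and 0 to 19 when each library was left out in turn. For the average, where 2 were called, there were 0 with library totals, 6 without a filter, 0 with limma-voom, 0 without DMSO 240 h replicates 1 and 2, and 0 to 13 on leaving out each library. Of the wider list, 2 genes passed at 240 h with only the libraries compared and the replicate block, Cebpd (0.30) and Cebpb (0.26). Both are named after their values were seen, and same-numbered 240 h libraries correlated only weakly. Over time with DMSO, 4694 genes were called, and 2861 without 240 h replicates 1 and 2, which left 1 library in that group, assumed to vary like the other groups. The causes were not tested. Depth limits Lcn2, Saa3 and the 240 h values of Hp and Kng2, which rest on 0 to 12 counts per library.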
